A study of Mus musculus with 4 samples.

Results

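The replication-dependent histone genes were followed in brains with and without the RNA-editing enzyme ADAR2. They were taken as every transcript cluster of the normalized array table with a gene symbol that starts with Hist1h, Hist2h, Hist3h or Hist4h. Each transcript cluster gathers the probes that were designed against 1 transcribed locus. The rule used names only and returned 70 of the 33793 clusters. Of these 54 belonged to the Hist1 genes on chromosome 13, 11 to the Hist2 genes on chromosome 3, 3 to the Hist3 genes on chromosome 11 and 2 to Hist4h4 on chromosome 6. By histone class there were 6 clusters for H1, 20 for H2A, 18 for H2B, 12 for H3 and 14 for H4.

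Total RNA came from whole brains of adult female mice of strain 129SV, and 4 arrays were measured, 2 from wild-type and 2 from Adar2 knockout brains. ADAR2, the product of Adarb1, edits double-stranded RNA by changing adenosine to inosine. The study's methods give the knockouts as Adar2-/-, Gria2 R/R and the wild types as their Gria2 R/R siblings out of heterozygous crosses. Both groups therefore carried a pre-edited Gria2 allele, which keeps Adar2-/- mice alive, and neither stands for a brain with an unaltered Gria2 gene. The deletion was present in every cell, so the arrays cannot assign a difference to one cell type. In RNA of a whole tissue, fewer cells of a type and less RNA per cell cannot be told apart. Nothing in the labels ties the arrays to litters or processing days, and the p-values measure only the spread between these 4 arrays.

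Replication-dependent histone genes supply the histones that package newly made DNA, and their transcripts accumulate in S phase. Their mRNAs mostly end in a conserved stem-loop in place of a poly(A) tail, and a dedicated machinery around the stem-loop binding protein and the U7 snRNP makes that end. Most neurons of the adult brain do not divide, but some of these genes also give polyadenylated transcripts in differentiated cells. The genes lie in dense clusters, and many H2A and H2B genes stand head to head and share the DNA between their starts.

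The short promoter elements of these genes are shown first because the paired H2A and H2B genes share them. Promoter windows from 250 bases before to 50 bases after each start were taken from RefSeq on build GRCm38.p6 for 61 of the 68 distinct genes that the clusters lie on. Letters were searched on both strands, and none of the searched strings contains another. The octamer ATTTGCAT was found in 7 of 18 H2A promoters and 6 of 15 H2B promoters. It was in none of the 6 H1, 10 H3 and 12 H4 promoters searched, and in 1.74% of all 32841 promoters. The string CCAAT was in every H1, H2A, H2B and H3 promoter searched and in 3 of 12 H4 promoters, against 37.4% of all promoters. The string TATAAA was in 57.4% of the histone promoters and in 13.6% of all promoters. The lines below give 30 bases around the octamer of 8 genes that are described further on, each read 5′ to 3′ on the strand of its own gene, with the octamer or its reverse complement in capitals.
Hist1h2ae, chr13:23571330-23571359, minus strand: atagaggttctATGCAAATaagggactcaa
Hist1h2bg, chr13:23571330-23571359, plus strand: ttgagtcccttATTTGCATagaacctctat
Hist1h2ah, chr13:22035780-22035809, minus strand: tagaacttcgtATGCAAATaaagtgaaatg
Hist1h2bk, chr13:22035780-22035809, plus strand: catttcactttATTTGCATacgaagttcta
Hist1h2ab, chr13:23750948-23750977, plus strand: tgcaggcctttATGCAAATgaggagctcaa
Hist1h2ac, chr13:23684071-23684100, minus strand: tgggtgggattATGCAAATgaagtttccag
Hist2h2ac, chr3:96221062-96221091, minus strand: atgaacgccttATGCAAATtaggtctcaaa
Hist3h2a, chr11:58954555-58954584, plus strand: gggtaaggcatATGCAAATtaggaaggctc
Hist1h2ae and Hist1h2bg are read from the same 30 bases on opposite strands, as are Hist1h2ah and Hist1h2bk. A match is a description of letters and not a site shown to be bound.

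The targeted gene was checked first. Adarb1 had log2 signals of 10.50 and 10.45 on the wild-type arrays and 9.16 and 8.96 on the knockout arrays. In this text paired values follow replicate 1 and then replicate 2, and a log2 signal is the deposited normalized value. Adarb1 was lower by 2.67-fold in the knockout, with a limma unadjusted p of 2.57e-05 and an adjusted p of 0.409 over all 33793 clusters. The exact permutation test over the 4 arrays gave p = 0.33, the smallest it allows with 2 arrays against 2. Array medians lay between 6.03 and 6.09. The number of arrays limits the precision of all that follows. Neuronal Snap25 had signals of 13.16 and 13.05 in wild type and 12.97 and 12.97 in the knockout, and all 9 clusters of 8 neuronal genes were found. The knockout arrays also held high signals for the anterior pituitary hormone Prl, at 10.11 and 9.66 against 6.55 and 4.99. Female mice have no Y chromosome, and the 4 clusters of Y-linked genes, between 3.49 and 4.40, serve here as a measured background level.

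The replication-dependent histone genes as a group were close to equal between the genotypes. The median difference of the 70 clusters, knockout minus wild type, was -0.005 on the log2 scale, and it was 0.005 over all clusters. With an array left out it lay between -0.11 and 0.08. Of the 70 clusters 32 were higher in the knockout, 37 were lower and 1 had equal means. None passed an adjusted p of 0.05 (limma with Benjamini-Hochberg adjustment), where the lowest was 0.834, and none did with a pooled-variance test. The background share of all clusters past that threshold was 0%. At an unadjusted p below 0.05 there were 5 histone clusters, or 7.14%, against 5.95% of all clusters. All 5 were lower in the knockout, against 2.31% of all clusters called lower. Their unadjusted limma p ran from 0.0148 to 0.0443, and the exact permutation test gave 0.33 for each, its smallest value here. None was higher, against 3.64% of all clusters called higher. The groups did not overlap in 11 histone clusters that were lower in the knockout, or 15.7%, near the 16.5% of all clusters. Besides the 5 calls these were Hist1h1a, Hist1h2ah, Hist1h2bc, Hist1h2bg, Hist1h3g and Hist1h4b, and 8 of the 11 had a mean at or below the Y-linked maximum of 4.40. They did not overlap in 2 histone clusters that were higher, or 2.86%, against 17.7% of all clusters. No histone cluster differed by 2-fold, and the largest difference was 1.66-fold. By locus the median difference was 0 for Hist1, -0.015 for Hist2, -0.075 for Hist3 and -0.18 for Hist4, the latter from clusters of a single gene.

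**Figure D1:**
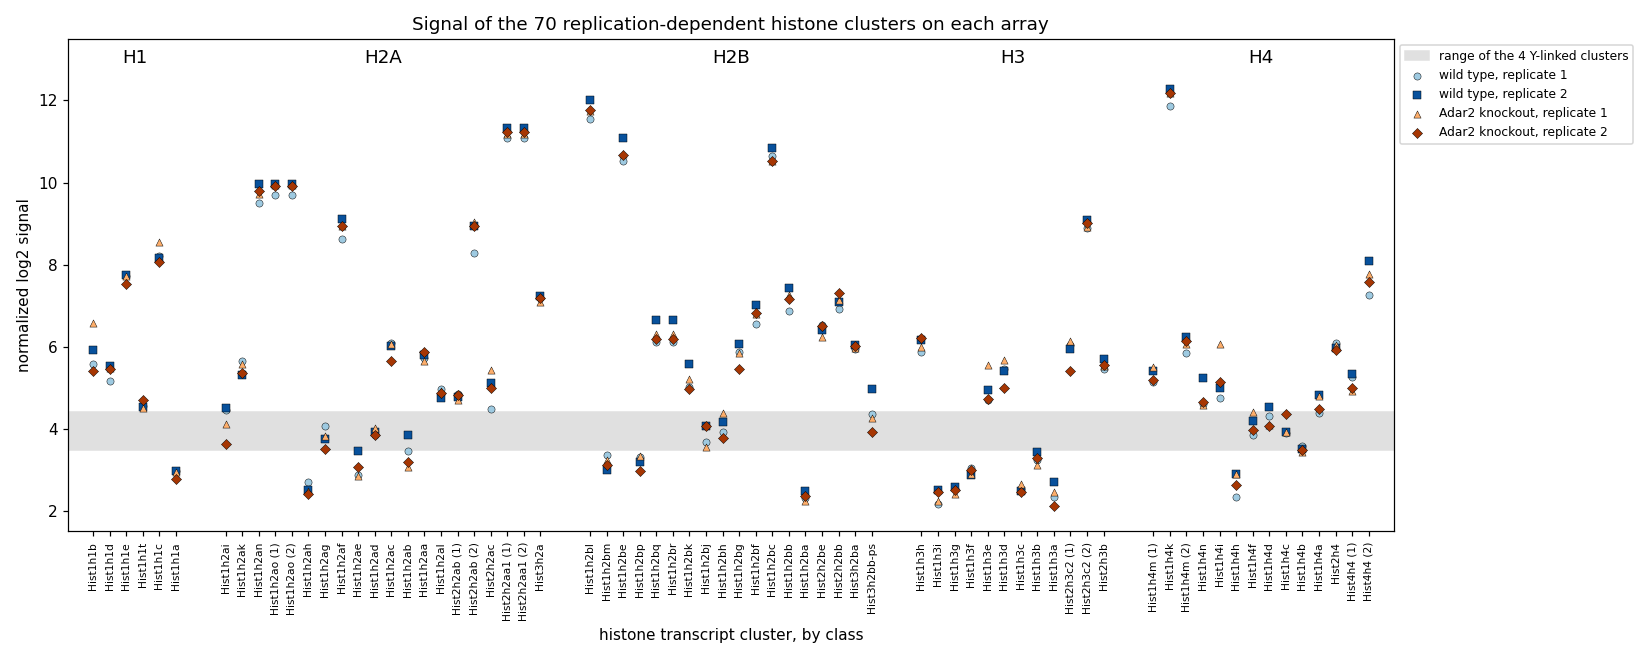
Normalized log2 signal (vertical axis) of each of the 70 histone clusters on the 4 arrays, grouped by histone class, with a number in parentheses where 2 clusters carry 1 name. The grey band is the range of the 4 Y-linked clusters from 3.49 to 4.40, and 24 histone clusters have a mean at or below its upper edge.

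The design of the probes bears on every value. A mean signal at or below 4.40, the top of the Y-linked range, was found for 24 of the 70 histone clusters, and 13 lay below 3.49 on all 4 arrays. Clusters rest on differing sets of 8 to 33 probes, so the Y-linked range is only a rough guide to background. Signals of histone clusters are therefore not ranked against each other. The file lists 53 clusters under 1 gene symbol and 17 under several, up to 14. It marks the probes of 21 histone clusters as able to cross-hybridize (type 3) and those of the other 49 as unique (type 1). The type 3 share was 30% here and 14.7% over all clusters. In 6 clusters all 4 values were shared with another histone cluster, namely the Hist1h2ao pair, Hist1h2bq with Hist1h2br, and the Hist2h2aa1 pair. The deposited values do not separate these copies. By position, all 70 clusters overlapped a histone gene of RefSeq on build GRCm38.p6, and 62 of the 63 with a known gene strand lay on the strand of their gene.

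Among the linker histones, which bind DNA between nucleosomes, no cluster passed the unadjusted threshold. The differences of the 6 H1 clusters ran from -0.125 to 0.225 with a median of 0.085, and 4 were higher and 2 lower. The median was -0.165 without Adar2 knockout replicate 1 and -0.005 without wild type replicate 1, so its sign rested on single arrays. Hist1h1b had signals of 5.59 and 5.93 in wild type and 6.57 and 5.40 in the knockout. One knockout array was thus the highest of the 4 and the other the lowest, and the difference of 0.225 had a standard error of 0.372. It was -0.36 without the first knockout array and 0.81 without the second. Hist1h1c, one of the H1 genes with polyadenylated transcripts, had 8.20 and 8.17 against 8.56 and 8.06, a difference of 0.125 (SE 0.178). Here too the first knockout array was the highest. Hist1h1d had 5.17 and 5.53 against 5.47 and 5.46, and Hist1h1e had 7.73 and 7.74 against 7.73 and 7.53. The span of the Hist1h1e cluster also covers Hist1h2be, and which of these genes its probes lie on is not known. Its value may therefore not be specific to the linker histone. Hist1h1a, at 2.98 and 2.98 against 2.94 and 2.77, lay below the Y-linked range on all arrays. Hist1h1t, a testis-specific linker histone, had 4.56 and 4.54 against 4.51 and 4.70.

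Of the H2A clusters 2 passed the unadjusted threshold, both lower in the knockout, and the 20 differences ran from -0.605 to 0.42 with a median of 0.005, which was between -0.075 and 0.065 with an array left out. Hist1h2ai (chr13:21716412-21717452) had signals of 4.45 and 4.51 in wild type and 4.12 and 3.63 in the knockout. No knockout signal reached a wild-type one, and the difference was -0.605 (SE 0.177). It was -0.36 without Adar2 knockout replicate 2 and -0.85 without replicate 1 of that group. The file lists the cluster under 10 H2A symbols but marks its probes as unique, so which copies it measures is not settled here. Hist1h2ab (chr13:23751088-23751593), which carries the octamer shown above, had 3.46 and 3.85 against 3.07 and 3.19. Its knockout signals lay below the Y-linked range, and the difference was -0.525 (SE 0.157). The groups did not overlap in either gene, and the mean over the 4 arrays was at or below 4.40 in both.

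The highest H2A differences did not pass the test. Hist2h2ac had 4.49 and 5.11 in wild type and 5.44 and 5.0 in the knockout, with a difference of 0.42 (SE 0.245). The groups overlapped, since the second wild-type array was above the second knockout array. Hist2h2ab has 2 clusters on the array. The one on the strand of the gene had 8.29 and 8.94 against 9.05 and 8.94, a difference of 0.38 (SE 0.218). Single arrays moved both values, as without wild type replicate 1 they were 0.11 for Hist2h2ac and 0.055 for Hist2h2ab, and 0.73 and 0.705 with that array kept and the other wild-type array left out. The one on the opposite strand had 4.84 and 4.77 against 4.71 and 4.83, a difference of -0.035 (SE 0.109). The pair that shares the Hist2h2aa1 values had 11.08 and 11.32 against 11.18 and 11.23. In these Hist2 clusters on the gene strand the first wild-type array was the lowest of the 4. Hist3h2a, an H2A gene outside the large clusters, had 7.18 and 7.24 against 7.08 and 7.19. Hist1h2aa, a testis-specific H2A gene, had 5.73 and 5.79 against 5.66 and 5.88.

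The H2B clusters leaned lower, with 13 of 18 below 0, 5 above and a median of -0.10 in a range from -0.585 to 0.215. This direction rested on the wild-type arrays, as the median was 0.10 without wild type replicate 2 and -0.24 without wild type replicate 1. Only Hist3h2bb-ps, a pseudogene in the current RefSeq annotation (chr11:58954048-58954512), passed the unadjusted threshold. Its signals were 4.37 and 4.98 in wild type and 4.26 and 3.92 in the knockout. The gap between the lowest wild-type and the highest knockout array was small beside the spread within wild type, and the difference was -0.585 (SE 0.229). It was -0.28 without the second wild-type array and -0.89 without the first.

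The H2B genes with polyadenylated transcripts in differentiated cells were measured well above the Y-linked range. Hist1h2bc had 10.64 and 10.84 in wild type and 10.52 and 10.53 in the knockout, with a difference of -0.215 (SE 0.117). The groups did not overlap, although the test was not passed. Hist2h2be had 6.54 and 6.41 against 6.23 and 6.51. The cluster entered as Hist1h2be had 10.52 and 11.09 against 10.70 and 10.68, but it lies at Hist1h2bn by position and its probes can cross-hybridize. Hist1h2bg had 5.86 and 6.06 against 5.85 and 5.46, a difference of -0.305 (SE 0.164) that was -0.11 without the second knockout array and -0.50 without the first. Hist2h2bb was the H2B cluster with the largest positive difference, at 6.93 and 7.09 against 7.15 and 7.30. Both of its knockout arrays were above both wild-type arrays, and the difference was 0.215 (SE 0.12). Hist3h2ba had 5.94 and 6.05 against 5.96 and 6.02. Testis-specific Hist1h2ba stayed between 2.24 and 2.49, below the Y-linked range.

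**Figure D2:**
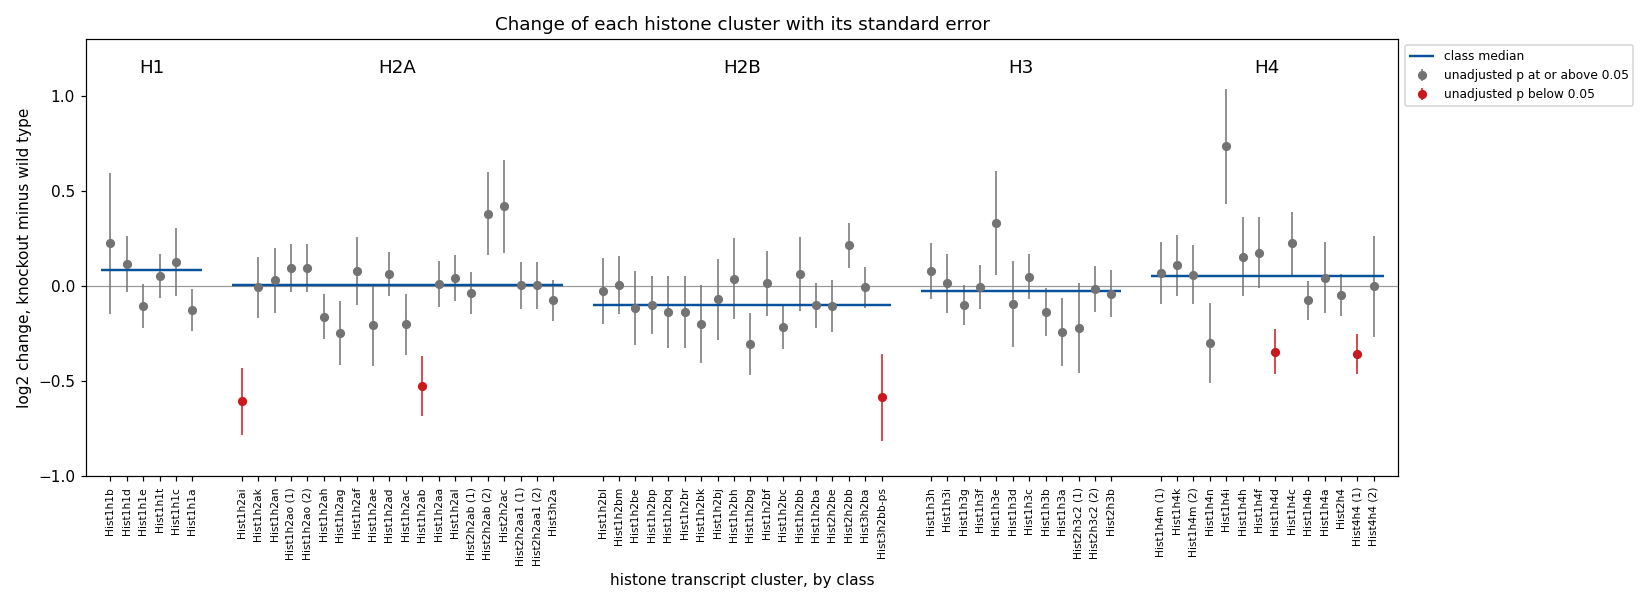
Log2 difference, knockout minus wild type (vertical axis), of each histone cluster with its standard error from the limma fit (2 arrays per genotype), grouped by class, and blue lines at the class medians. The 5 red points have an unadjusted p below 0.05 and all lie below 0, while the class medians run from -0.10 for H2B to 0.085 for H1.

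No H3 cluster passed the unadjusted threshold, and the 12 differences ran from -0.24 to 0.33 with a median of -0.028. Of these 8 were lower and 4 higher, and the median lay between -0.1175 and -0.0025 with an array left out. Hist1h3e had 4.69 and 4.94 in wild type and 5.56 and 4.73 in the knockout, a difference of 0.33 (SE 0.274) that was -0.085 without the first knockout array and 0.745 without the second. It is listed under 8 symbols, and the second knockout array was inside the wild-type range. Hist1h3d, also under 8 symbols, had 5.45 and 5.41 against 5.68 and 4.99. Hist2h3c2 has 2 clusters, and the unique one had 6.03 and 5.94 against 6.13 and 5.40. The one that can cross-hybridize had 8.89 and 9.08 against 8.92 and 9.02, and by position it lies at Hist2h3c1. Hist2h3b had 5.46 and 5.70 against 5.52 and 5.56. In Hist1h3e, Hist1h3d and the unique Hist2h3c2 cluster the first knockout array was the highest of the 4.

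The H4 genes, whose coding regions are nearly identical, held 2 clusters past the unadjusted threshold and the largest positive difference of the whole set. The 14 differences ran from -0.355 to 0.735 with a median of 0.052. The sign of that median rested on single arrays, being -0.11 when wild type replicate 1 was left out, 0.25 when wild type replicate 2 was, and -0.072 when Adar2 knockout replicate 1 was. Hist4h4, the single gene on chromosome 6 (chr6:136801553-136804431), has 2 clusters that gave different values. The unique one had 5.27 and 5.34 in wild type and 4.91 and 4.99 in the knockout. The genotypes were separated by more than the spread within each, and the difference was -0.355 (SE 0.106). The cluster that can cross-hybridize had 7.27 and 8.08 against 7.78 and 7.57, with equal group means. The value of Hist4h4 thus depended on which probes were read. Hist1h4d (chr13:23581598-23581990) had 4.32 and 4.53 against 4.09 and 4.07, a difference of -0.345 (SE 0.118). It is listed under 14 symbols and its probes can cross-hybridize.

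Hist1h4i (chr13:22040816-22041352) had 4.74 and 5.0 in wild type and 6.07 and 5.14 in the knockout. Both knockout arrays were above both wild-type arrays, by 0.735 on the log2 scale (SE 0.301). It missed the unadjusted threshold, with a limma p of 0.0518 beside an exact permutation p of 0.33. Most of that came from the first knockout array, since the difference was 0.27 without it and 1.2 without the second. Hist1h4c had 3.89 and 3.92 against 3.91 and 4.35, a difference of 0.225 (SE 0.164), and is listed under 14 symbols. That difference came from the second knockout array, as it was 0.005 without it and 0.445 without the first. Hist2h4 had 6.08 and 5.96 against 6.03 and 5.92.

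**Figure D3:**
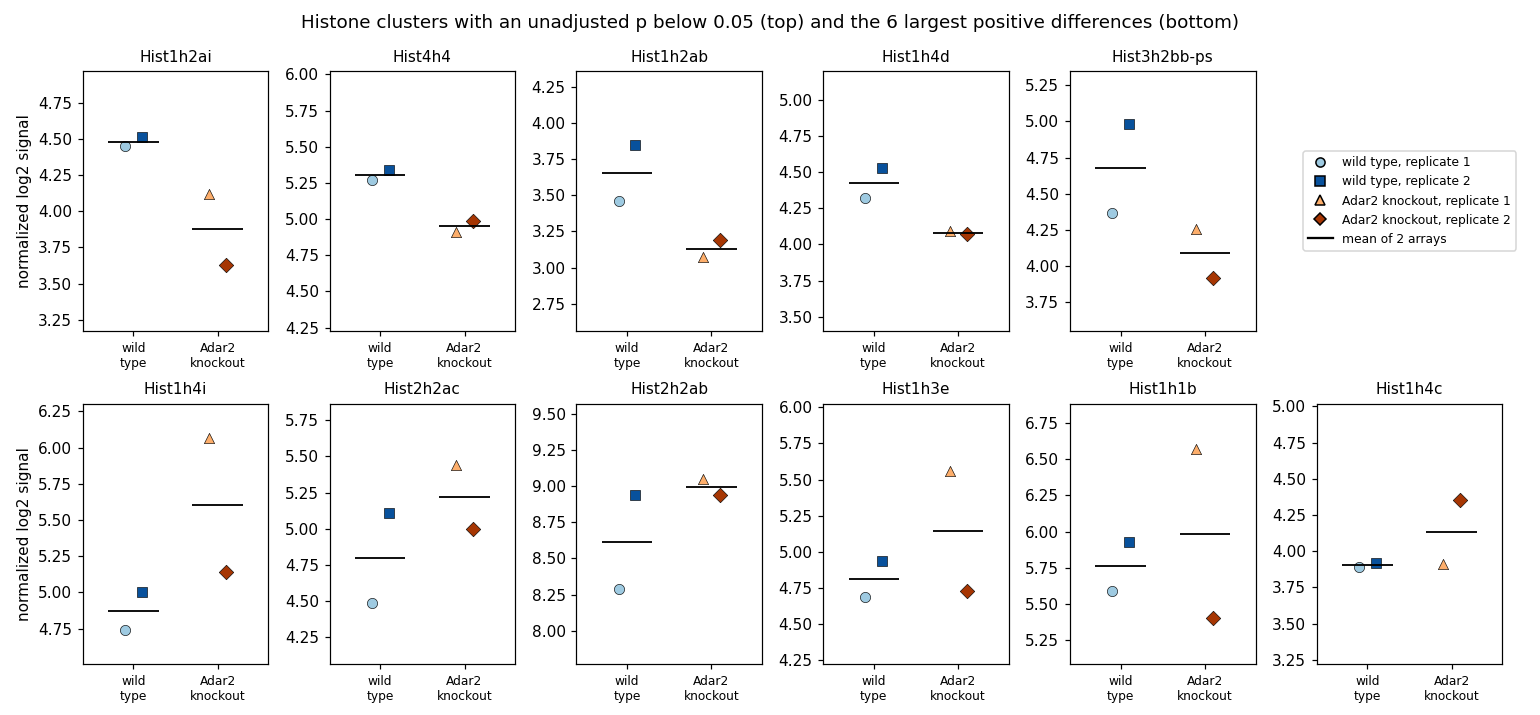
Normalized log2 signal (vertical axis, with the same span of 1.8 in every panel) of the 5 histone clusters with an unadjusted p below 0.05 and the 6 with the largest positive difference, as points for the 2 arrays of each genotype and a line at their mean. In the top row no knockout point reaches a wild-type point, and in the bottom row only Hist1h4i is free of overlap.

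How far the 5 calls depended on single arrays was then examined. Without wild type replicate 2 the 5 differences remained negative, at -0.575 for Hist1h2ai and -0.32 for Hist4h4, close to the values with all arrays. They were smaller in size at -0.33 for Hist1h2ab, -0.24 for Hist1h4d and -0.28 for Hist3h2bb-ps. Without wild type replicate 1 all 5 were larger in size, at -0.635 for Hist1h2ai, -0.39 for Hist4h4, -0.72 for Hist1h2ab, -0.45 for Hist1h4d and -0.89 for Hist3h2bb-ps. Without Adar2 knockout replicate 1 they were -0.85 for Hist1h2ai, -0.315 for Hist4h4, -0.465 for Hist1h2ab, -0.355 for Hist1h4d and -0.755 for Hist3h2bb-ps. Without Adar2 knockout replicate 2 they were -0.36 for Hist1h2ai, -0.395 for Hist4h4, -0.585 for Hist1h2ab, -0.335 for Hist1h4d and -0.415 for Hist3h2bb-ps. In that last fit Hist1h4i stood at 1.2, Hist1h3e at 0.745 and Hist1h1b at 0.81. A fit to 3 arrays has 1 residual degree of freedom, so calls at the unadjusted threshold are not compared between such fits. A test with pooled variance and no shrinkage called 1 histone cluster, the unique Hist4h4 cluster, and 1897 of all 33793 clusters. Hist4h4 was also the 1 call among the 46 histone clusters with a mean above the Y-linked range. That is 2.17%, against 5.95% of all clusters at any signal.

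The gap between the wild-type arrays was larger than the genotype difference in 49 of the 70 histone clusters, and in 57.5% of all clusters. All 21 clusters that can cross-hybridize were higher on the second wild-type array than on the first, by 0.19 to 0.81 with a median of 0.42. The same median was 0.04 over all type 3 clusters of the array, of which 27.3% had a gap of at least 0.19, and 0.07 over the 49 unique histone clusters. The 21 comprise 6 H2A, 7 H2B, 2 H3 and 6 H4 clusters, and where probes of copies cross-hybridize their values are not independent. In 20 of the 21 that gap exceeded the genotype difference, as it did in 58.6% of all type 3 clusters. Over the 7 clusters with polyadenylated transcripts the median difference was -0.105, with 1 higher, 5 lower and 1 equal. Without the cluster entered as Hist1h2be, which lies at Hist1h2bn, it was -0.09 over 6, with 4 lower. The log2 of the summed signal of the 7 was 11.89 and 12.24 in wild type and 11.95 and 11.91 in the knockout. A lower sum in the knockout thus rested on the second wild-type array. Choroid plexus markers were also higher on the second wild-type array, in 7 of 7 clusters, with the log2 of their summed signal at 12.95 and 13.31 in wild type and 13.12 and 13.25 in the knockout. Their part in the gap was not tested.

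**Figure D4:**
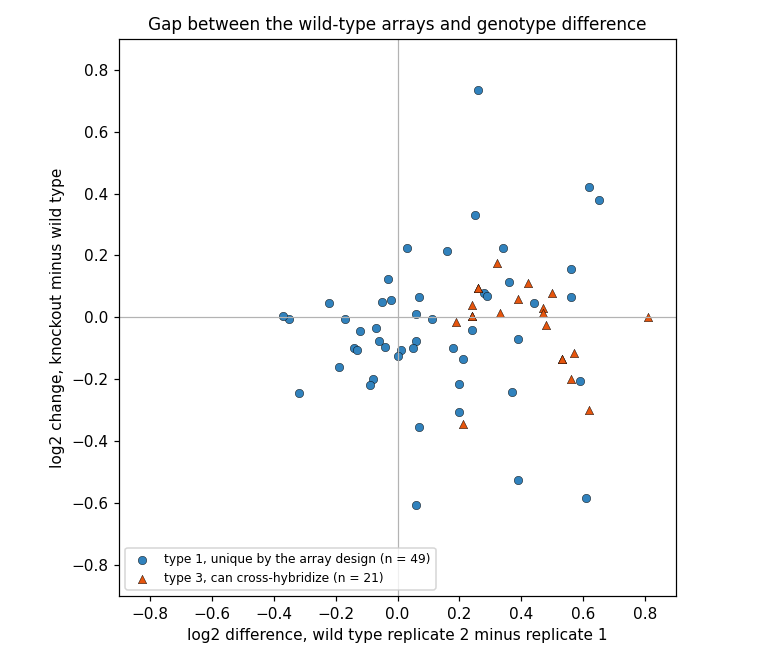
Log2 difference between the wild-type arrays (horizontal axis) against the log2 difference between genotypes (vertical axis) for each of the 70 histone clusters, with circles for the 49 unique clusters and triangles for the 21 that can cross-hybridize. All triangles lie to the right of 0, between 0.19 and 0.81, while their genotype differences lie between -0.345 and 0.175.

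The knockout arrays differed from each other in a smaller set of clusters. The first was above the second by more than 0.5 in 6 histone clusters, against 2.54% of all clusters, and the opposite held in 1. These 6 were Hist1h1b, Hist1h4i, Hist1h3e, the unique Hist2h3c2 cluster, Hist1h3d and Hist1h2bh. Among the 33 clusters of S phase and cell division genes 14 were higher on the first knockout array, and a gap of more than 0.5 was found in 2. Both belong to Top2a, a topoisomerase of dividing cells, at 6.67 and 6.03 and at 7.44 and 6.92, while its remaining cluster went the opposite way at 4.60 and 5.01. The salivary gland list was higher on the first knockout array in 7 of 8 clusters found for its 10 genes. The log2 of its summed signal was 12.98 on that array and between 7.91 and 8.03 on the other 3, with Bpifa2 at 5.13 and 5.09 in wild type and 12.61 and 5.28 in the knockout. The olfactory bulb list was lower on the second knockout array in 8 of 8 clusters, with a log2 summed signal of 10.18 there and 10.59 to 10.76 on the others. No marker of either list was at 0 on any array. The part of these tissues in the histone values was not tested.

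Divergent H2A and H2B genes were set side by side, because they share a promoter region. There were 13 such pairs, with 167 to 305 bases between the clusters. Those of Hist1h2ao with Hist1h2bq and with Hist1h2br have the same values, since the copies share all 4 signals. Both genes were lower in the knockout in 7 pairs, both were higher in 1 and they differed in sign in 5. In Hist1h2ac and Hist1h2bc, both above the Y-linked range on every array, the differences were -0.20 and -0.215. Hist1h2ac had 6.09 and 6.01 in wild type against 6.06 and 5.64 in the knockout. Its first knockout array was inside the wild-type range, so its difference came from the second. Of the pairs with the octamer in the promoter windows of both genes, Hist1h2ae and Hist1h2bg gave -0.205 and -0.305. Hist1h2ah and Hist1h2bk, another such pair, gave -0.16 and -0.20. Hist1h2ae had 2.87 and 3.46 in wild type against 2.84 and 3.08, and Hist1h2bk had 5.02 and 5.58 against 5.22 and 4.98. In both clusters the knockout mean lay above the first wild-type array, so the lower direction rested on the second. The H2A genes Hist1h2ae and Hist1h2ah lay below the Y-linked range on all 4 arrays, so it is not known whether they were measured above background. The remaining such pair, testis-specific Hist1h2aa and Hist1h2ba (chr13:23934302-23934331), differed in sign at 0.01 and -0.10, with Hist1h2ba below that range. The octamers printed for Hist1h2ac, Hist2h2ac and Hist3h2a also lie between the clusters of their pairs, but were found only in the window of the H2A gene. Hist1h2ai differed by -0.605 while its partner Hist1h2bl differed by -0.025. Several pairs hold a cluster whose probes can cross-hybridize, Hist1h2bl and Hist1h2bk among them, and Hist1h2ai is listed under 10 symbols. In such pairs the values are not settled as those of single genes. Hist3h2bb-ps at -0.585 stood beside Hist3h2a at -0.075, and Hist2h2ac at 0.42 beside Hist2h2be at -0.105. Of the 26 values 2, those of Hist1h2ai and Hist3h2bb-ps, passed the unadjusted threshold, which 5.95% of all clusters passed.

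**Figure D5:**
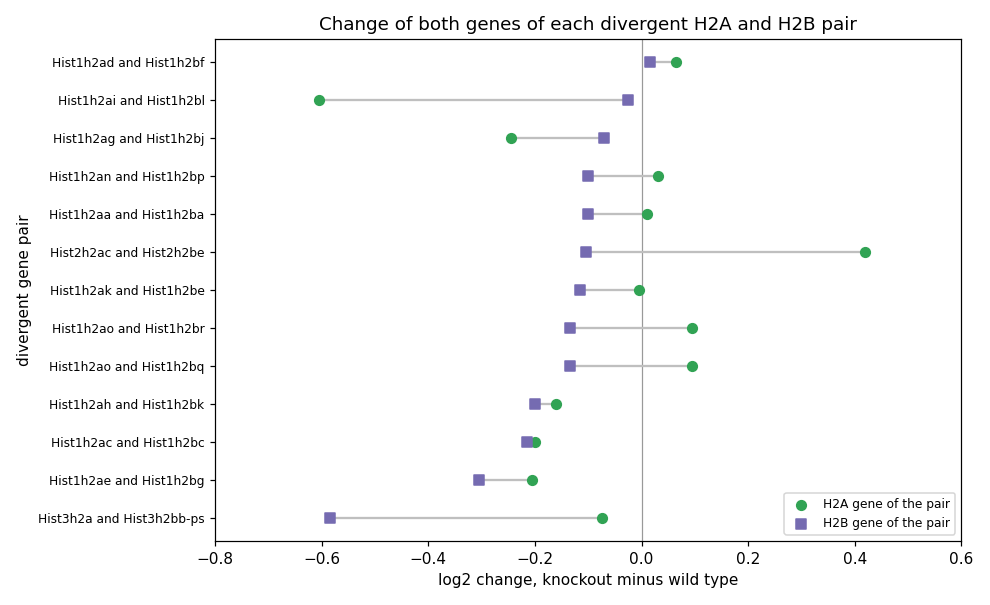
Log2 difference, knockout minus wild type (horizontal axis), of the H2A gene (circle) and the H2B gene (square) of each of the 13 divergent pairs, without error bars. Both lie below 0 in 7 pairs, with Hist1h2ac and Hist1h2bc nearly on the same point and Hist1h2ai and Hist1h2bl far apart. The Hist1h2ac difference came from the second knockout array, and the probes of Hist1h2bl can cross-hybridize.

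The genes that transcribe, end and carry replication-dependent histones were then examined. Of 21 genes for histone transcription and 3′ end processing 20 were found, in 22 clusters with a median difference of -0.03. Among them 1 was lower at an unadjusted p below 0.05 and none was higher, and this 4.55% compares with 5.95% of all clusters. It was Cpsf3, the endonuclease that cuts histone and other pre-mRNAs, at 9.40 and 9.23 in wild type and 8.78 and 9.04 in the knockout, a difference of -0.405 (SE 0.136). The groups did not overlap. Pou2f1, the octamer-binding factor Oct1, had 5.46 and 5.44 against 5.82 and 5.63, a difference of 0.275 (SE 0.115). Its other cluster went the opposite way, at 8.53 and 8.48 against 8.32 and 8.39, a difference of -0.15 (SE 0.104), so the gene has no settled direction here. Eri1, an exonuclease of histone mRNA decay, had 7.88 and 7.52 against 7.34 and 7.56. Slbp, the stem-loop binding protein, had 7.97 and 7.95 against 8.16 and 7.96, and Npat, the coactivator of histone genes, had 8.04 and 8.15 against 8.01 and 8.12. The latter 2 overlapped between groups and were named after their values were seen.

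Replication-independent histone variants, which are deposited outside S phase, were found for 15 of 18 genes in 20 clusters with a median of -0.052. Of these 1, or 5.0%, was higher and none lower at the unadjusted threshold that 5.95% of all clusters passed. It was H2afb1, a short H2A variant, at 6.48 and 6.36 in wild type and 6.84 and 6.73 in the knockout, a difference of 0.365 (SE 0.112). H2afv, an H2A.Z variant, had 9.97 and 9.87 against 9.74 and 9.54, a difference of -0.28 (SE 0.12). H2afj had 6.56 and 6.72 against 6.78 and 6.81. The 22 clusters of 19 histone chaperones, of 20 listed, had a median of -0.032 and none past the unadjusted threshold. In 7 of the 22, or 31.8%, both knockout arrays were below both wild-type arrays, against 16.5% of all clusters. In none were both above, against 17.7%. The lower pattern was not particular to this list, as it held in 3 of 6 astrocyte and 3 of 7 microglia and macrophage clusters. It held in 1 of 9 neuronal clusters. Nasp, a histone chaperone, had 5.55 and 5.67 against 5.36 and 5.37, a difference of -0.245 (SE 0.107). Ssrp1, a subunit of the FACT complex, had 7.46 and 7.61 against 7.37 and 7.31. Hjurp, the chaperone of the centromeric H3 variant, had 7.96 and 7.06 against 7.05 and 6.98.

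Genes of S phase and cell division, the setting in which replication-dependent histones are made, had a median difference of 0.025 over 33 clusters of all 30 genes. At the unadjusted threshold 1 was higher and 1 lower, together 6.06% beside 5.95% of all clusters. Cdk1, the kinase that drives entry into mitosis, had 5.15 and 5.39 in wild type and 5.60 and 5.61 in the knockout, a difference of 0.335 (SE 0.123). Ube2c, an enzyme that helps degrade mitotic cyclins, had 6.46 and 6.25 against 5.74 and 5.84, a difference of -0.565 (SE 0.122). Each had groups that did not overlap, in opposite directions. Ccne1, the S phase cyclin E1, had 8.06 and 8.09 against 7.84 and 7.82, a difference of -0.245 (SE 0.101). Markers of neuroblasts and immature neurons, found for 12 of 13 genes in 15 clusters, had a median of -0.175 with 12 lower and 3 higher. Both knockout arrays were below both wild-type arrays in 7 of the 15, or 46.7%, against 16.5% of all clusters. Both were above in 1, or 6.67%, against 17.7%. In 13 of the 15 the second knockout array was below the first, and the exceptions were Prox1 and the Neurod1 cluster at 9.11 and 9.46. The log2 of the summed signal was 12.55 and 12.62 in wild type and 12.52 and 12.37 in the knockout. The olfactory bulb list, which shares Eomes with this list, was low on the same array, as given above, and its part in the difference was not tested. Prox1, a transcription factor of dentate granule cells, was the 1 cluster past the unadjusted threshold, or 6.67% against 5.95% of all clusters, at 7.99 and 7.95 against 7.52 and 7.66, a difference of -0.38 (SE 0.109). Sox4 had 7.41 and 7.32 against 7.20 and 6.67, and 5.58 and 5.67 against 5.55 and 5.25 in its other cluster. Neurod1 had 9.60 and 9.61 against 9.11 and 9.46, and 6.56 and 6.78 against 6.53 and 6.44 in its other cluster.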

How the data were processed

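RNA was extracted with peqGOLD TriFast, prepared with the Ambion WT Expression Kit and hybridised to Affymetrix mouse gene arrays, per the labels and the study's methods. The deposited table holds a normalized log2 signal per transcript cluster and array, to 2 decimals. The submitters' processing notes name Affymetrix Expression Console and RMA, without versions. The table names no genome build. Its log ratios, signed fold changes, p-values, group averages and ratios between single arrays are the authors' own comparisons and were not used.

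A linear model with genotype alone was fitted to the log2 signals by limma 3.58.1 (lmFit, then eBayes) under R 4.3.3. Tests were two-sided, no filter was set, and Benjamini-Hochberg adjustment ran over all 33793 clusters. For the shrinkage, eBayes estimated 0.125 as prior SD and 3.79 prior degrees of freedom, beside 2 residual ones. On simulated data with 33793 clusters, the adjusted threshold of 0.05 found 94.4% of the clusters given a log2 change of 2 and 47.3% of those given 1. Only a small random set of clusters was given a change, and spreads were drawn from the fitted prior. These shares therefore do not give the power on the real arrays, where Adarb1 at -1.415 had an adjusted limma p of 0.409. Means of the 4 arrays were also compared by an exact permutation test.

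Groups and replicate numbers came from the array titles. Same-numbered arrays did not deviate together (Pearson r = 0.0516 over all clusters and 0.0298 over the histone clusters), so the numbers were not taken as pairs. Named genes were Adarb1, members past an unadjusted p of 0.05, the 6 largest differences in each direction, all H1, Hist2, Hist3 and Hist4 clusters, members of the polyadenylated and testis-specific lists and, of other lists, genes past 0.05 or the 3 with the lowest p. Top2a, Slbp, Npat and the members named outside this rule were chosen after their values were seen. Lists were matched to clusters with 1 symbol. Positions and promoter windows were set against RefSeq on GRCm38.p6, and clusters were paired as divergent up to 1000 bases apart. The members and lists were chosen with earlier results of these data known. Of the alternatives, 13 covered centring, quantile normalization, dim and cross-hybridizing clusters, shared values, the eBayes prior, shrinkage, a replicate block and each array left out, and 2 more on the members were chosen after seeing the data. Python 3.11.15, pandas 2.3.3 and matplotlib 3.10.9 served for tables and plots.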

Additional observations from a re-analysis of the deposited data

How the results depend on the processing

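No histone cluster passed an adjusted p of 0.05 under any of the 15 alternatives, and Adarb1 was lower under each of the 13 that refitted it, by -1.52 to -1.32 with an array left out. Over all clusters 15 passed the adjusted threshold with the pooled-variance test without shrinkage, none of them a histone cluster, and 0 with any array left out. The count of histone clusters with an unadjusted p below 0.05, which was 5, became 0 among clusters above the median signal, where none of the 5 was measured. It became 1 with the pooled-variance test, 3 for histone clusters with 1 symbol only and 1 for those above the range of the Y-linked genes. Of all 33793 clusters the pooled-variance test passed 1897, beside 2009 in the main fit. Leaving out an array gave 2 to 6, with the 2 without wild type replicate 2. A fit to 3 arrays has 1 residual degree of freedom, so these left-out counts are not compared with the 5. The replicate block gave 4, all among the 5 with Hist3h2bb-ps lost, and changed no call at the adjusted threshold. It passed 1693 of all 33793 clusters at the unadjusted threshold. All 5 kept an unadjusted p below 0.05 with median centring, quantile normalization, an intensity trend, robust eBayes or shared values counted once. Hist1h4i had an unadjusted p of 0.0435 among unique clusters, 0.0458 with an intensity trend and 0.0496 with robust eBayes. The median difference of the histone clusters was between -0.11 and 0.08 with an array left out. Hist1h3e was -0.085 without Adar2 knockout replicate 1 and up to 0.745 with another array left out, and Hist1h1b was -0.36 and up to 0.81, and the cause was not tested. Where 1 array of a genotype is left out, the lone array is assumed to vary like the pair of the other genotype. Signals near the Y-linked range and listing under several symbols limit what 24 and 17 of the histone clusters can show.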

Other observations

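Hist1h2al, entered as an H2A gene, lies apart from the Hist1 genes on chromosome 13, at chr13:51200084, where RefSeq on build GRCm38.p6 places a pseudogene. Its signals were 4.97 and 4.75 in wild type and 4.93 and 4.88 in the knockout. Hist1h4n, listed under 14 symbols, had 4.61 and 5.23 in wild type and 4.58 and 4.66 in the knockout, with a difference of -0.30 (SE 0.21), and the groups overlapped. Hist1h2bl, Hist1h4k and Hist1h2an had signals between 9.49 and 12.28 with differences of -0.025, 0.11 and 0.03, and their probes can cross-hybridize. Hist1h3c, Hist1h3g and Hist1h3i stayed between 2.17 and 2.66, below the Y-linked range on all arrays.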
